A study of Mus musculus with 4 samples.

Results

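The response of CRTC3 KO astrocytes to forskolin (FSK) was examined as the log2 signal of the CRTC3 KO array with FSK minus that of the CRTC3 KO vehicle array. All 22180 genes with a probe set that names a single gene were members, of 41345 probe sets in all, and where a gene had several probe sets the brightest over the 4 arrays of the series stood for it. A gene was called bright when its mean over the 4 arrays was at least 5.81, the median over all gene probe sets, and 11286 genes were bright. Primary astrocytes came from mixed glial cultures of the cerebral cortex of newborn mouse pups, from which floating microglia had been shaken off, on a C57BL/6J background. CRTC3 KO astrocytes received 25 µM FSK for 2 h or vehicle (0.1% DMSO), and WT astrocytes received the same, with 1 array per condition. The KO is a germline deletion that all cells of the culture carry, not one confined to astrocytes, and the mice had been backcrossed repeatedly to C57BL/6J. How long vehicle was applied is not given in the sources used here. With 1 array per condition no test was possible, no p-value is given, and every difference below is a description of these arrays.

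FSK activates adenylyl cyclases directly, so that cAMP builds up without a receptor being engaged. cAMP releases the catalytic subunits of protein kinase A (PKA), which phosphorylate the transcription factor CREB and restrain the salt-inducible kinases (SIKs), and CRTC coactivators then move into the nucleus and bind CREB on cAMP response elements (CREs). CRTC1, CRTC2 and CRTC3 belong to the same family, and in astrocytes the pathway is known for immediate early genes, glycogen metabolism and trophic factor genes.

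*Crtc3*, the deleted gene, had a signal of 5.49 in CRTC3 KO with FSK and 4.92 in CRTC3 KO with vehicle, against 8.14 in WT with FSK and 7.75 in WT with vehicle. Both KO arrays were therefore below both WT arrays and below the median of gene probe sets, as the labels require. Its response of 0.57 in CRTC3 KO lies among dim values and says nothing of a working transcript. *Crtc1* had 7.52 in CRTC3 KO with FSK and 7.74 in CRTC3 KO with vehicle, and *Crtc2* had 7.33 and 7.27, so both remaining coactivator genes were bright in CRTC3 KO. All 4 arrays had nearly the same distribution after the authors' normalization, with medians between 5.48 and 5.50. Astrocyte markers were bright for 13 of 15 measured, among them *Gfap*, with 11.49 in CRTC3 KO with FSK and 11.41 in CRTC3 KO with vehicle. Microglia and macrophage markers were also present: all 15 measured were bright, and *Csf1r*, the receptor on which microglia depend, had 11.13 and 11.09 on the same 2 arrays. Fibroblast and mural cell markers differed between the genotypes before any FSK, since all 9 bright markers were lower in CRTC3 KO vehicle than in WT vehicle, with a median difference of -1.66; over all 12 measured, 10 were lower and 2 higher, with a median of -0.675. In such mixed samples, fewer cells of a type and less RNA per cell cannot be told apart.

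The promoters are shown first, because the CRE is the sequence through which CREB and CRTCs act. RefSeq windows on GRCm38.p6 run from 250 bases before to 50 bases after a start site, are given 5′ to 3′ on the gene's strand, and were searched on both strands for the full CRE, TGACGTCA, and for the shorter site TGACG, which lies inside the full CRE on each strand. Capitals mark these letters. Of 27025 genes with a window, 2.03% held the full CRE and 23% a short site; among bright genes with a window the shares were 3.58% and 35.5%. *Il1b* is shown because it had the highest response of any bright gene in CRTC3 KO, *Tinf2* because it was past 1.5-fold in both genotypes and held a full CRE, and *Nr4a2* and *Scg2* as cAMP target genes with short sites and with a full CRE. *Senp2* and *Ch25h*, chosen after their values were seen, held a full CRE and stood at opposite ends of the response.
Il1b, chr2:129371090-129371389, minus strand: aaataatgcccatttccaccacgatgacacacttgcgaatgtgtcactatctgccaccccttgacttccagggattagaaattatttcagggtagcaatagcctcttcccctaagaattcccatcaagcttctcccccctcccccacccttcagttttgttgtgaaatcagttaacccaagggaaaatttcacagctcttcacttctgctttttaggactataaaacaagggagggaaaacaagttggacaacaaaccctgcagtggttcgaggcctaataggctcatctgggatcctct
Tinf2, chr14:55681768-55682067, minus strand: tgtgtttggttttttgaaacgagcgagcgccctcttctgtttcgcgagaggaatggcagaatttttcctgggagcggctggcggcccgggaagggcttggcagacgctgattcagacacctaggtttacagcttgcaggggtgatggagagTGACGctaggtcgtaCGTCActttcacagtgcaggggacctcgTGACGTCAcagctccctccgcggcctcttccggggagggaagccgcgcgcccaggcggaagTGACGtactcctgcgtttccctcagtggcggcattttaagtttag
Nr4a2, chr2:57123954-57124253, minus strand: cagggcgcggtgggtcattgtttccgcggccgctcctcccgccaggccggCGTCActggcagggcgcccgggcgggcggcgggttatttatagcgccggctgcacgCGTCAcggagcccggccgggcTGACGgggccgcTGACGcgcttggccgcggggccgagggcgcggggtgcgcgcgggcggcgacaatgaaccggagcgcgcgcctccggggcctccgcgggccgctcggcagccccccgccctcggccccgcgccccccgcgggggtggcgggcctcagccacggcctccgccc
Scg2, chr1:79439977-79440276, minus strand: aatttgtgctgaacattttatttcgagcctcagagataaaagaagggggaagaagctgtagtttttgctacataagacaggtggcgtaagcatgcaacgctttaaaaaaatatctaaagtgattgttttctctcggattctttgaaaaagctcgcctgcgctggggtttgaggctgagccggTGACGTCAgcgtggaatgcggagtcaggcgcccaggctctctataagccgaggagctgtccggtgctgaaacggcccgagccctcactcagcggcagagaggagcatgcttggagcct
Senp2, chr16:22009234-22009533, plus strand: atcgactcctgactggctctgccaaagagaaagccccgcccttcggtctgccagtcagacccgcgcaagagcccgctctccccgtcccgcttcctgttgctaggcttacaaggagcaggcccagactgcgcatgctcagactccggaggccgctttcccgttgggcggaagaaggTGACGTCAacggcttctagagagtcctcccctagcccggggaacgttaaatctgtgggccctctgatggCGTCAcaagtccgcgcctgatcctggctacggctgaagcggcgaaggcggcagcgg
Ch25h, chr19:34475099-34475398, minus strand: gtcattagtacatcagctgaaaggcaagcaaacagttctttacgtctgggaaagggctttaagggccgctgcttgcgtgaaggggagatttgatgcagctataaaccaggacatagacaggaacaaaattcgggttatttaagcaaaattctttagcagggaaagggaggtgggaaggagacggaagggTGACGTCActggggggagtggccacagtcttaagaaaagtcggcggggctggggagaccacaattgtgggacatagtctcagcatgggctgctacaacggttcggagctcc
The full CRE began at position -56 in *Tinf2*, -68 in *Scg2*, -75 in *Senp2* and -61 in *Ch25h*, counted from the start site. *Nr4a2* held 4 short sites and no full CRE, and *Il1b* held neither. A match describes these letters only, and its absence says nothing of a factor's binding.

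The response of CRTC3 KO astrocytes was small for most genes. Over bright genes the median response was -0.01, and the middle 95% lay between -0.34 and 0.31. Of all 22180 genes, 6 (0.0271%) passed 2-fold upward with FSK and 11 (0.0496%) downward. Only *Il1b* among the higher and only *Ch25h* and *Ccl3* among the lower were bright. Among the 11286 bright genes, 29 (0.257%) passed 1.5-fold upward and 24 (0.213%) downward, and these are described gene by gene. In WT, the same limit was passed by 83 bright genes (0.735%) upward and 46 (0.408%) downward. As a scale without replicates, the responses of a gene's brightest probe set and its others in CRTC3 KO differed with an SD of 0.26 over 1341 pairs. This SD compares probe sets on the same 2 arrays and does not measure the spread between arrays or cultures. At the limit the order is fine: *Gal3st2* at 0.59 was counted and *Gm7736* at 0.57 was not, while *Themis2* at -0.59 was counted and *Cx3cr1* at -0.58 was not.

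**Figure D1:**
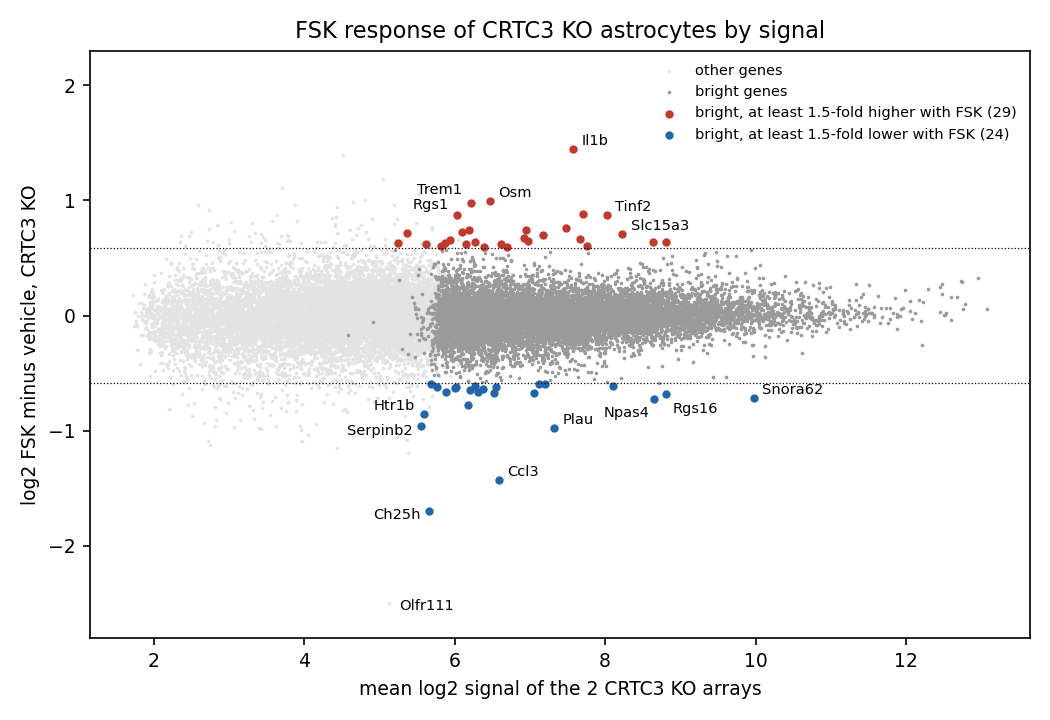
Each point is a gene, with the mean log2 signal of the 2 CRTC3 KO arrays on the horizontal axis and the log2 difference FSK minus vehicle in CRTC3 KO on the vertical axis; dotted lines mark 1.5-fold. The 29 higher and 24 lower bright genes stand outside a band that narrows as signal rises, with Il1b at 1.45 and Ch25h at -1.70 farthest out among bright genes.

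*Il1b*, the inflammatory cytokine interleukin-1β, led the genes that were higher. It had 8.30 in CRTC3 KO with FSK against 6.86 in CRTC3 KO with vehicle, and 7.13 in WT with FSK against 5.76 in WT with vehicle. The difference was thus 2.72-fold in CRTC3 KO and 2.58-fold in WT, and both CRTC3 KO arrays were above their WT counterparts. *Osm*, the cytokine oncostatin M of the IL-6 family, had 6.96 with FSK and 5.97 with vehicle in CRTC3 KO, a 1.99-fold difference, against 6.91 and 6.38 in WT. *Trem1*, an activating receptor of myeloid cells, had 6.70 and 5.72 in CRTC3 KO (1.97-fold) against 7.01 and 6.27 in WT (1.67-fold). *Rgs1*, which shortens G protein signals, had 6.47 with FSK and 5.60 with vehicle in CRTC3 KO, a 1.83-fold difference, against 7.18 and 6.28 in WT (1.86-fold).

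*Slc15a3*, a lysosomal peptide and histidine transporter, had 8.58 with FSK and 7.88 with vehicle in CRTC3 KO, against 8.70 and 7.91 in WT. *Tlr5*, the receptor for bacterial flagellin, had responses of 0.62 in CRTC3 KO and 0.78 in WT. *Trim25*, a ubiquitin ligase of antiviral RNA sensing, had 0.60 and 0.92. *Ms4a4a*, a membrane protein of macrophages, had 8.96 with FSK and 8.32 with vehicle in CRTC3 KO but 7.75 and 7.77 in WT, where the 2 arrays were nearly level. The 15 microglia and macrophage markers had a median response of -0.03 in CRTC3 KO, ranging from -0.58 to 0.17, with 7 above 0 and 8 below, and their summed signal was 13.78 with FSK and 13.79 with vehicle on the log2 scale. None of the defining markers was dim, and the part of these cells in the result was not tested. Which cells of the culture carried *Il1b*, *Osm* and *Trem1* was not tested.

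*Tinf2*, which encodes the telomere protein TIN2 and holds a CRE in the window printed above, had 8.46 with FSK and 7.59 with vehicle in CRTC3 KO, against 9.24 and 8.48 in WT. Its response of 0.87 in CRTC3 KO stood beside 0.76 in WT, although its level was lower in CRTC3 KO under both treatments. *Senp2*, a protease that removes SUMO, had 9.13 with FSK and 8.49 with vehicle in CRTC3 KO, against 9.06 and 8.86 in WT. Only 16 of the 29 genes had a promoter window to search, and *Senp2* was the other gene of these with a full CRE. *Thbd*, the clotting inhibitor thrombomodulin, had 6.92 with FSK and 6.30 with vehicle in CRTC3 KO, against 8.81 and 7.08 in WT. The difference was 1.54-fold in CRTC3 KO and 3.32-fold in WT. *Cytip*, a cytohesin partner of cell adhesion, had 5.72 and 5.01 in CRTC3 KO against 7.68 and 6.05 in WT. Both of its CRTC3 KO values were below the median of gene probe sets, so *Cytip* was bright only through WT. *Tnmd*, the tendon protein tenomodulin, was likewise bright only through WT, with 5.57 and 4.94 in CRTC3 KO.

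The remaining genes of the 29 had WT responses between -0.38 and 0.35. *Ctla2a*, an inhibitor of cathepsin L-like proteases, had responses of 0.70 in CRTC3 KO and 0.27 in WT. *Dynlrb2*, a dynein light chain, had 0.75 and 0.15, *Gast*, the peptide hormone gastrin, 0.74 and -0.12, and *Twist1*, a mesenchymal transcription factor, 0.62 and -0.22. The CRTC3 KO mean of *Twist1* (5.62) was below the bright limit, so *Twist1* was bright only through WT. *Syt4*, a vesicle protein, had 0.64 and 0.08, *Lin7b*, a scaffold protein, 0.61 and -0.29, and the sulfotransferase genes *Chst13* and *Gal3st2* 0.60 and 0.59 in CRTC3 KO. *Syt4* was the only one of the 29 with several probe sets, 3 in number, and its values are those of the brightest. Another 8 were not protein-coding: the small nucleolar RNAs *Snord70*, *AF357426* and *Snora2b*, the microRNA gene *Mir337* and the pseudogenes *Gm13034*, *Gm5528*, *Gm6402* and *Gm3940*. *Snord70* had 8.14 with FSK and 7.26 with vehicle in CRTC3 KO, against 7.78 and 7.90 in WT. Genes of any type other than protein-coding, with 42 of unknown type included, made up 615 of the 11286 bright genes. Of these 615, 1.3% were past 1.5-fold upward, against 0.197% of the 10671 protein-coding bright genes. Downward the shares were 0.488% and 0.197%, so that a larger share of the 615 was past the limit in both directions. None of the 239 long non-coding RNA genes among them was past it either way. The median WT response was -0.15 over the 8, against 0.27 over the 21 protein-coding genes of the 29.

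**Figure D2:**
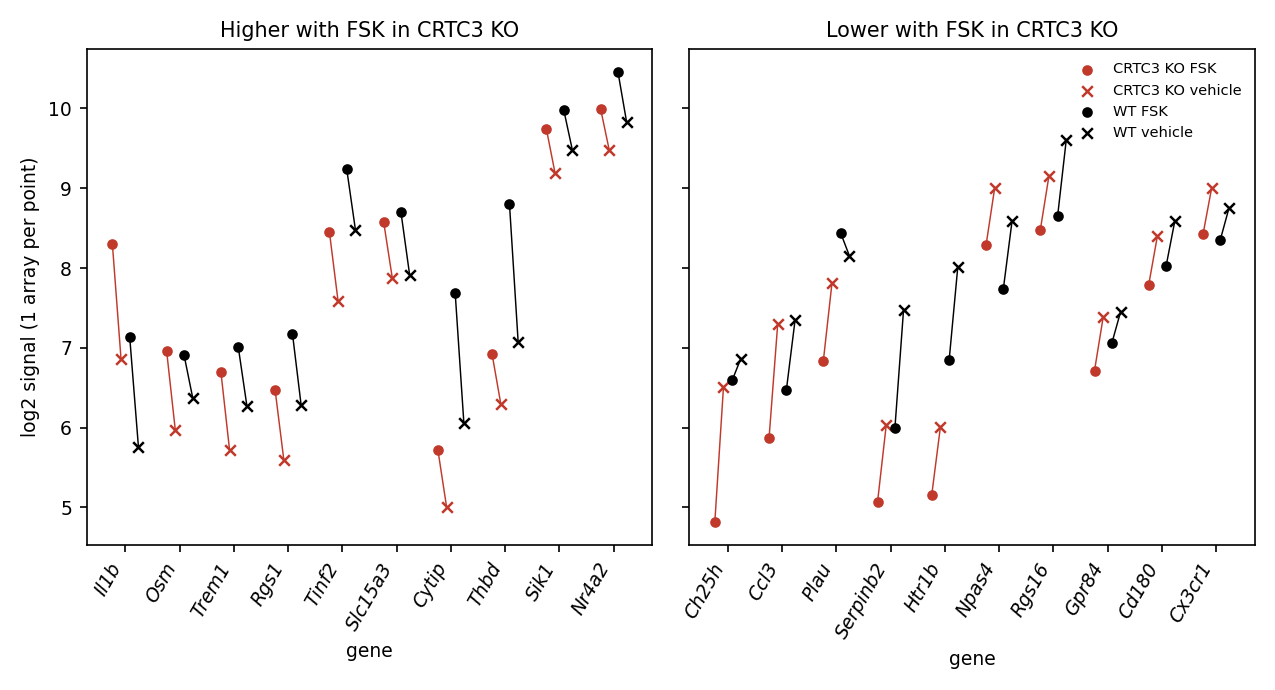
Log2 signal on each of the 4 arrays, as filled circles for FSK and crosses for vehicle, in CRTC3 KO (red) and WT (black), for 10 genes higher and 10 genes lower with FSK in CRTC3 KO; lines join FSK to vehicle within a genotype. Il1b, Tinf2, Sik1 and Nr4a2 have similar slopes in both genotypes, while the slopes of Thbd and Cytip are steeper in WT, Ch25h drops mainly in CRTC3 KO, and Plau has opposite slopes.

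Genes known to be induced by cAMP through CREB had a positive median response without CRTC3. Of 43 bright genes of this list, 32 were above 0 in CRTC3 KO, with a median of 0.19, against 47.1% of all bright genes above 0 and a median of -0.01. None passed 1.5-fold upward, and 18 of the 43 reached 0.25 on the log2 scale, which 4.42% of all bright genes did. The 18 include *Il6* and *Penk*, which were bright only through WT. Over all 49 members measured, without the bright limit, 18 reached 0.25, against 1650 of all 22180 genes. The list's median in WT was 0.23. *Sik1*, the kinase that feeds back on CRTCs, was highest, with 9.75 with FSK and 9.19 with vehicle in CRTC3 KO, against 9.98 and 9.48 in WT. *Nr4a2*, an orphan nuclear receptor, had 9.997 and 9.48 in CRTC3 KO, against 10.46 and 9.83 in WT. *Fos*, the immediate early factor, had 9.59 and 9.14 in CRTC3 KO, against 9.81 and 9.18 in WT. For these 3 genes the CRTC3 KO response was 0.55, 0.52 and 0.45, beside 0.51, 0.63 and 0.63 in WT, and the signals were high on all 4 arrays.

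Other genes of the same list had CRTC3 KO responses that lay further below those in WT. *Rasd1*, a small GTPase, had 7.29 with FSK and 6.89 with vehicle in CRTC3 KO, against 8.98 and 7.53 in WT. *Penk*, the opioid precursor proenkephalin, had 5.96 and 5.51 in CRTC3 KO, against 7.91 and 6.07 in WT. *Il6*, the cytokine interleukin-6, had 5.69 and 5.34 in CRTC3 KO, against 7.56 and 5.68 in WT. Their CRTC3 KO responses of 0.40, 0.45 and 0.35 stood beside 1.46, 1.84 and 1.89 in WT. The KO values of *Il6* and the KO mean of *Penk* (5.74) were below the median of gene probe sets, so these responses rest on low signals. *Il6* and *Penk* were thus bright only through WT. *Cebpb*, a transcription factor of the acute phase, had 0.40 in CRTC3 KO and 0.68 in WT, and *Klf4* 0.30 and 0.83. By contrast *Scg2*, the granin with a CRE in its printed window, had 0.37 in CRTC3 KO and 0.20 in WT, and *Nr4a3* 0.34 and 0.19. Over the list, the CRTC3 KO response was the lower one for 31 of 43 genes, against 5674 of the 11286 bright genes. This count includes *Il6* and *Penk*, whose high WT signals with FSK both made them bright and raised their WT responses. Over all 49 members measured, without the bright limit, the CRTC3 KO response was the lower one for 33, against 11409 of all 22180 genes.

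Some genes of the list were lower with FSK. *Npas4*, an activity-dependent transcription factor, had 8.28 with FSK and 9.01 with vehicle in CRTC3 KO, against 7.74 and 8.59 in WT, and it was the only member past 1.5-fold. *Egr3*, *Egr2* and *Arc*, which neurons switch on with activity, had -0.44, -0.34 and -0.27 in CRTC3 KO and -0.23, -0.35 and -0.28 in WT, and *Nrn1*, a neurite growth protein, -0.37 and -0.19. Those 5 were the members at or below -0.25, a limit that 5.69% of bright genes reached. Of 31 members with a promoter window, 26 (83.9%) held a short site and 5 (16.1%) a full CRE, beside 35.5% and 3.58% of bright genes, and *Npas4* held short sites as well. The list was compiled from genes known as CREB targets, so these shares describe how it was made.

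Genes of the enzymes that break down cAMP also had a positive median response. Of 12 bright cAMP phosphodiesterase genes, 10 were above 0 in CRTC3 KO, with a median of 0.18, and 5 reached 0.25, against 47.1% and 4.42% of all bright genes. *Pde4b* had 6.28 with FSK and 5.87 with vehicle in CRTC3 KO, against 6.02 and 5.69 in WT. *Pde3b* had 8.85 and 8.46 in CRTC3 KO, against 8.82 and 8.49 in WT, and *Pde7a* 7.77 and 7.45 in CRTC3 KO, against 7.90 and 7.62 in WT. The CRTC3 KO responses of *Pde4b*, *Pde3b* and *Pde7a* (0.41, 0.39 and 0.32) each lay slightly above the WT ones (0.33, 0.33 and 0.28), by less than the SD between probe sets of a gene. *Pde1b*, a phosphodiesterase stimulated by calcium and calmodulin, was lowest, with -0.20 in CRTC3 KO and -0.23 in WT.

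In the CRTC and CREB family without *Crtc3*, 8 of 12 bright genes were above 0 in CRTC3 KO, with a median of 0.05, against 47.1% and -0.01 over all bright genes. After *Sik1*, *Sik2* had 10.04 with FSK and 9.67 with vehicle in CRTC3 KO, against 9.72 and 9.57 in WT, and *Crem*, which gives rise to the repressor ICER, had responses of 0.31 in CRTC3 KO and 0.46 in WT. The coactivator *Crtc1* was lowest with -0.22 in CRTC3 KO and 0.03 in WT, while *Crtc2* had 0.06 and -0.02. Upstream of CREB, 12 of 17 bright genes of cAMP production and PKA were below 0, with a median of -0.08, against 52.8% of all bright genes below 0. The lowest were *Prkar2b*, a regulatory subunit of PKA, at -0.33, and *Adcy2*, an adenylyl cyclase, at -0.27, beside -0.00 and 0.33 in WT, and none was past 1.5-fold. Both CRTC3 KO values of *Prkar2b* (5.43 and 5.75) were below the median of gene probe sets, so that it was bright only through WT. Regulators of G protein signaling went both ways in both genotypes. *Rgs16* had 8.47 with FSK and 9.15 with vehicle in CRTC3 KO, against 8.65 and 9.61 in WT, opposite to *Rgs1*, and *Rnd1* had 6.31 and 6.81 in CRTC3 KO, against 6.03 and 6.20 in WT.

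**Figure D3:**
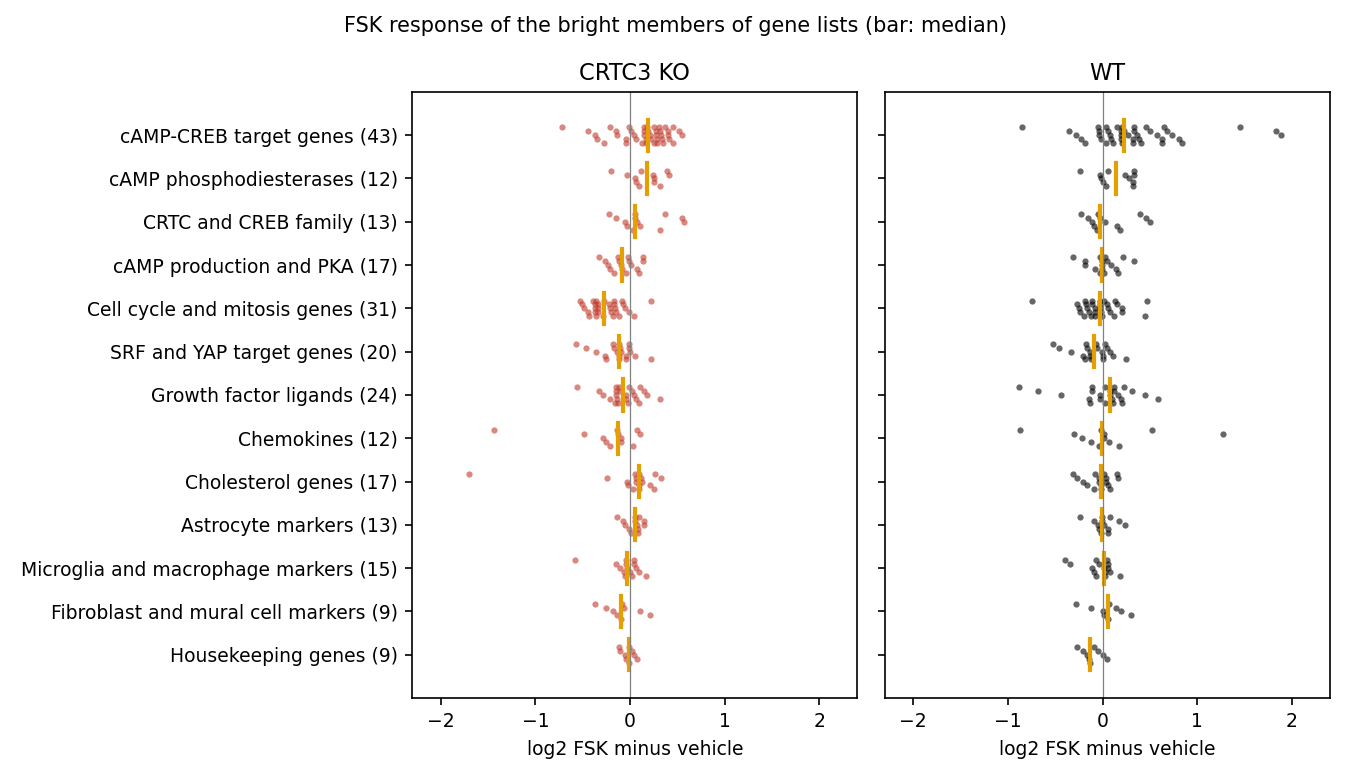
Log2 difference FSK minus vehicle of each bright member of 13 gene lists (points; number of members in parentheses, *Crtc3* itself included in its family), in CRTC3 KO on the left and WT on the right, with the median as a bar. In CRTC3 KO the cAMP target and phosphodiesterase lists sit to the right of 0 with medians of 0.19 and 0.18, and the cell cycle list to the left with -0.27.

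*Ch25h*, which encodes cholesterol 25-hydroxylase, was the lowest bright gene. It had 4.81 in CRTC3 KO with FSK and 6.51 in CRTC3 KO with vehicle, against 6.59 in WT with FSK and 6.86 in WT with vehicle. The array with FSK in CRTC3 KO stood alone, and the difference was 3.25-fold lower in CRTC3 KO and 1.21-fold lower in WT. A dimmer probe set of *Ch25h*, at 4.84 with FSK and 5.02 with vehicle in CRTC3 KO, had a response of -0.18 only. The mean of the 2 CRTC3 KO arrays was 5.66 for *Ch25h*, below the bright limit, and with values below that limit raised to it the response was -0.70. *Ccl3*, a chemokine of macrophages and microglia, had 5.87 with FSK and 7.30 with vehicle in CRTC3 KO, against 6.47 and 7.35 in WT, which made it 2.70-fold and 1.83-fold lower. *Plau*, the protease urokinase that activates plasminogen, had 6.83 with FSK and 7.81 with vehicle in CRTC3 KO, against 8.44 and 8.15 in WT, so that the direction differed between the genotypes.

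Several of the lower genes were lower by more in WT. *Serpinb2*, an inhibitor of urokinase, had 5.07 with FSK and 6.03 with vehicle in CRTC3 KO, against 5.99 and 7.48 in WT. *Htr1b*, a serotonin receptor that inhibits adenylyl cyclase, had 5.16 and 6.01 in CRTC3 KO, against 6.84 and 8.02 in WT. *9930111J21Rik2* had 5.78 and 6.56 in CRTC3 KO, against 5.22 and 6.51 in WT. Their responses were -0.96, -0.85 and -0.78 in CRTC3 KO and -1.49, -1.17 and -1.28 in WT. The CRTC3 KO means of *Serpinb2* and *Htr1b* (5.55 and 5.59) were below the median of gene probe sets, and with values below it raised to it their responses were -0.22 and -0.20.

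Further lower genes included some known from myeloid cells, which were grouped after their values were seen. *Gpr84*, a receptor for medium-chain fatty acids, had 6.71 with FSK and 7.38 with vehicle in CRTC3 KO, against 7.06 and 7.45 in WT. *Cd180*, a relative of Toll-like receptors, had 7.79 and 8.40 in CRTC3 KO, against 8.03 and 8.59 in WT. *Ikzf1*, the lymphoid and myeloid transcription factor Ikaros, had 6.05 and 6.69 in CRTC3 KO, against 5.98 and 6.57 in WT. Further genes of this kind past 1.5-fold were *Clec5a*, a myeloid lectin (-0.65 in CRTC3 KO and -0.14 in WT), *Naip5*, a sensor of bacterial flagellin (-0.67 and 0.14), *Tnfrsf11a*, the receptor RANK (-0.59 and -0.36), and *Themis2* (-0.59 and -0.36). Just short of the limit came *Cx3cr1*, the fractalkine receptor of microglia, with 8.42 and 9.01 in CRTC3 KO, against 8.36 and 8.75 in WT, and *C3ar1*, the receptor of complement C3a, with -0.54 and -0.35. *Cx3cr1* was the only one of the 15 microglia and macrophage markers at or below -0.25, whose summed signal is given above. Here too the cells of origin were not tested.

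The other genes past 1.5-fold downward were *Ptger4*, a prostaglandin E2 receptor that raises cAMP (-0.66 in CRTC3 KO and -0.23 in WT), *Rasgrp3*, an activator of Ras proteins (-0.62 and -0.30), the homeobox gene *Hoxa4* (-0.62 and 0.20), *Nepro* (-0.66 and -0.38), *Zfp13* (-0.63 and -0.06) and *Fam241a* (-0.60 and -0.07). The CRTC3 KO means of *Hoxa4* and *Fam241a* (5.76 and 5.69) were below the bright limit, so these genes were bright only through WT. *Snora62*, *Olfr75-ps1* and *Gm9292* are not protein-coding. The small nucleolar RNA *Snora62* was the brightest of the 24, with 9.62 with FSK and 10.34 with vehicle in CRTC3 KO, against 9.51 and 9.63 in WT. Only its CRTC3 KO vehicle array stood apart. Of 18 genes of the 24 with a promoter window, only *Ch25h* held a full CRE (5.56%) and 4 held a short site (22.2%), beside 2 (12.5%) and 5 (31.2%) of 16 higher genes, and 3.58% and 35.5% of bright genes.

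Genes of the cell cycle were lower almost throughout. In CRTC3 KO 29 of 31 bright members were below 0, against 52.8% of all bright genes, with a median of -0.27, and 16 of the 31 reached -0.25, against 5.69%. None passed 1.5-fold. *Kif20a*, a kinesin of cytokinesis, had 6.48 with FSK and 7.003 with vehicle in CRTC3 KO, against 7.37 and 7.57 in WT. *Bub1*, a kinase of the spindle checkpoint, had 6.04 and 6.55 in CRTC3 KO, against 6.80 and 6.92 in WT. *Mki67*, the marker Ki-67 of dividing cells, had 8.53 and 8.98 in CRTC3 KO, against 9.26 and 9.44 in WT. Each of these 3 was lowest with FSK in CRTC3 KO, and its CRTC3 KO vehicle value was also below both WT values.

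The WT median of the cell cycle list was -0.03, and the response was lower in CRTC3 KO than in WT for 28 of 31 genes. With vehicle, 28 of 31 were already lower in CRTC3 KO than in WT, by a median of -0.25; this difference and the response share the CRTC3 KO vehicle array. Replication genes shared it: *Mcm6*, of the replicative helicase, had -0.37 in CRTC3 KO and -0.02 in WT, *E2f1*, which drives entry into S phase, -0.36 and 0.21, and *Rrm2*, which makes deoxynucleotides, -0.34 and 0.15. The exceptions were *Cdkn1b*, the cell cycle inhibitor p27, with 0.22 in CRTC3 KO and 0.47 in WT, and *Ccnd3*, a cyclin of G1, with 0.05 and 0.44. *Myc*, which had -0.75 in WT, was level in CRTC3 KO at -0.01. The share of dividing cells in each culture was not tested.

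Of 20 bright SRF and YAP target genes, 17 were below 0 in CRTC3 KO, with a median of -0.11, against 14 and -0.09 in WT and 52.8% of all bright genes below 0 in CRTC3 KO. Fibroblast and mural cell markers, which share *Acta2* with this list, were below 0 for 7 of 9 bright members in CRTC3 KO, with a median of -0.09 and a summed log2 signal of 12.74 with FSK and 12.95 with vehicle, and their part in this was not tested. *Ankrd1*, a mechanically induced muscle protein, had 5.90 with FSK and 6.47 with vehicle in CRTC3 KO, against 6.38 and 6.90 in WT, and the bright matricellular gene *Ccn2* had 9.995 and 10.26 in CRTC3 KO, against 10.34 and 10.79 in WT. Growth factor ligands were below 0 for 16 of 24 in CRTC3 KO, with a median of -0.07, against 9 of 24 and a median of 0.08 in WT and 52.8% of all bright genes below 0 in CRTC3 KO. *Pdgfb*, a platelet-derived growth factor chain, had 7.57 and 8.13 in CRTC3 KO, against 7.09 and 7.97 in WT, and *Hbegf*, a ligand of the EGF receptor, 10.45 and 10.78 in CRTC3 KO, against 9.90 and 10.59 in WT. *Fgf7* was the highest ligand, at 0.32 in CRTC3 KO and 0.59 in WT.

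Among chemokines 9 of 12 bright genes were below 0 in CRTC3 KO, with a median of -0.13, against 52.8% of all bright genes, whereas over all 21 measured 11 were above 0 and the median was 0.00. After *Ccl3* came *Ccl2*, a chemokine for monocytes, with 7.53 with FSK and 8.02 with vehicle in CRTC3 KO, against 7.02 and 7.23 in WT. *Cxcl1*, a chemokine for neutrophils, had 5.51 and 5.44 in CRTC3 KO, against 6.91 and 5.64 in WT, a response of 0.07 beside 1.27, and both CRTC3 KO values were below the median of gene probe sets. *Tnf*, the tumour necrosis factor gene, had 6.21 and 6.63 in CRTC3 KO, against 5.95 and 6.80 in WT. Of these, *Ccl3* alone was past 1.5-fold in CRTC3 KO. The 15 bright interferon-stimulated genes lay between -0.24 and 0.21.

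The 9 bright housekeeping genes had responses between -0.12 and 0.07 in CRTC3 KO. Of 13 bright astrocyte markers, 9 were above 0, against 47.1% of all bright genes, and 4 below, and all lay between -0.14 and 0.15. Of 17 bright cholesterol genes, 13 were above 0 in CRTC3 KO with a median of 0.10, against 47.1% and -0.01 over all bright genes. In WT 7 of the 17 were above 0, with a median of -0.01. The list was led by *Apoe*, the main lipid carrier of astrocytes, with 10.26 with FSK and 9.94 with vehicle in CRTC3 KO, against 9.26 and 9.47 in WT. *Ch25h* was the lowest of the 4 below 0 in CRTC3 KO. Among genes of glucose, glycogen and lactate, 14 of 24 were above 0 in CRTC3 KO, against 47.1% of all bright genes. *Arrdc3*, an arrestin-like protein of this list, had 9.59 and 9.05 in CRTC3 KO, against 9.39 and 8.83 in WT. *Txnip*, its relative that restrains glucose uptake, had -0.23 in CRTC3 KO and -0.96 in WT.

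Of the 17 genes past 2-fold in CRTC3 KO, 14 were dim, so that their values lay where the spread between arrays was widest: the middle 95% of dim genes reached from -0.50 to 0.43. *Olfr111*, an odorant receptor gene, had the lowest response of any gene, with 3.87 with FSK and 6.37 with vehicle in CRTC3 KO, against 5.46 and 6.99 in WT. Its relative *Olfr110* on the same chromosome had 3.43 and 4.52 in CRTC3 KO, against 4.13 and 5.09 in WT. Both were lower in both genotypes, and whether their probe sets also detect related receptors was not tested. *Tnip3*, a feedback inhibitor of NF-κB, had 4.79 and 5.98 in CRTC3 KO, against 5.92 and 6.14 in WT. The other lower ones were *Olfr147*, *Olfr299*, *Speer8-ps1*, *Gm8995*, *Mir3473c* and *1700029F12Rik*, between -1.15 and -1.03, and the other higher ones *Olfr331* at 1.40, *Gm13275* at 1.19, *Mir29b-1* at 1.11, *Mir1904* at 1.05 and *Gm10272* at 1.00. Over all 1432 sensory receptor genes measured, 34 were bright, and their median response was -0.01.

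*Mir29b-1* had 4.26 with FSK and 3.15 with vehicle in CRTC3 KO, against 2.57 and 3.54 in WT. *Mir29a*, a bright neighbour of it on the minus strand of chromosome 6, chosen after its values were seen, had 7.13 and 6.70 in CRTC3 KO, against 6.25 and 6.91 in WT. Both were thus higher with FSK in CRTC3 KO and lower in WT. Their mature 3p products are shown, 5′ to 3′ from RefSeq with bases 2 to 8 in capitals, because they share this seed.
miR-29a-3p, chr6:31062673-31062694: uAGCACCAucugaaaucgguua
miR-29b-3p, chr6:31063025-31063047: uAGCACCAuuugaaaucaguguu
The probe sets measure the miRNA genes' transcripts and not the mature products, whose levels are not known from these arrays.

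The WT arrays, which the CRTC3 KO response does not use, were set beside it, although they helped decide which genes counted as bright. Of the 29 bright genes past 1.5-fold upward in CRTC3 KO, 17 (58.6%) were above 0 in WT, against 46.5% of all bright genes, and 9 were past 1.5-fold in WT, against 0.735%. Of the 24 past 1.5-fold downward, 20 (83.3%) were below 0 in WT, against 53.5%, and 7 were past 1.5-fold, against 0.408%. The 9 higher in both were *Il1b*, *Trem1*, *Rgs1*, *Tinf2*, *Cytip*, *Slc15a3*, *Tlr5*, *Thbd* and *Trim25*, and the 7 lower in both were *Ccl3*, *Serpinb2*, *Htr1b*, *9930111J21Rik2*, *Npas4*, *Rgs16* and *Ikzf1*. Of these, *Cytip*, *Serpinb2* and *Htr1b* had CRTC3 KO means (5.37, 5.55 and 5.59) below the bright limit, so they were bright only through WT.

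Taken from the other side, 72 (86.7%) of the 83 bright genes past 1.5-fold upward in WT were above 0 in CRTC3 KO, against 47.1% of all bright genes, with a median of 0.23 in CRTC3 KO and 0.74 in WT. Of the 46 past 1.5-fold downward in WT, 30 (65.2%) were below 0 in CRTC3 KO, against 52.8%, with medians of -0.14 and -0.69. Genes picked for a large value in WT tend to have smaller ones elsewhere, so these medians do not measure by how much the response differs between the genotypes.

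**Figure D4:**
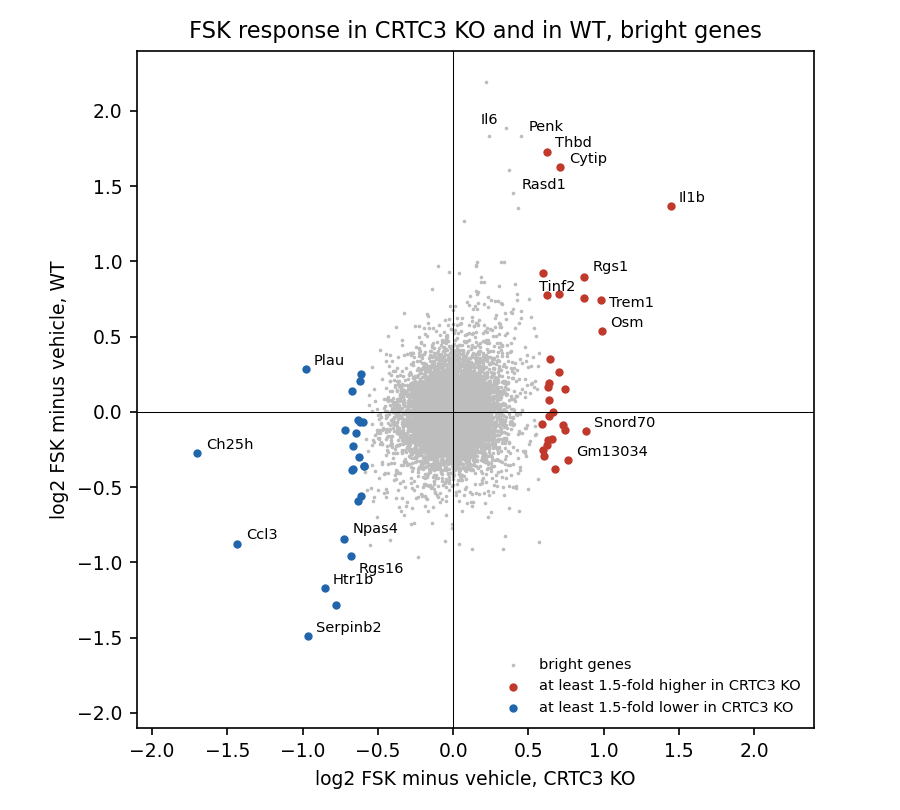
Log2 difference FSK minus vehicle in CRTC3 KO (horizontal) and in WT (vertical) for the 11286 bright genes, with those past 1.5-fold in CRTC3 KO coloured. Il1b, Rgs1, Trem1 and Tinf2 lie in the upper right and Ccl3, Serpinb2, Htr1b and Rgs16 in the lower left, whereas Il6, Penk and Rasd1 are high in WT and below 0.5 in CRTC3 KO.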

How the data were processed

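Per the labels and methods, the authors made labelled cDNA from RNA of each culture and hybridized it to Affymetrix mouse gene arrays. They summarized the signals by RMA in Affymetrix Expression Console and deposited gene-level log2 values, which were used as they are. RMA makes the array distributions equal and can compress true differences at low signal. In CRTC3 KO the responses of dim genes nevertheless spread more widely than those of bright genes. The build behind the annotation, the Expression Console version and any probe filter were not found in the sources used here. Of 41345 probe sets, 23521 had 1 gene symbol, 1820 several and 16004 none; 23328 of the 23521 were found in RefSeq (GRCm38.p6), and no symbol changed. FSK minus vehicle was computed per genotype. The methods compare arrays by fold-change, and no test was made.

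The members and the 37 lists were chosen with earlier results of these data known. Of 769 list entries, 712 were measured. Named genes were *Crtc3*, the 15 highest and 15 lowest bright genes in CRTC3 KO, all past 2-fold, bright list members at or beyond 0.5, and each list's largest responses; others, and the limit of 0.25, were chosen after their values were seen. Gene choice, counts and motif search were tested on simulated data. The number of arrays limits the precision. Some genes of the study are not analysed here. Python 3 with pandas was used.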

Additional observations from a re-analysis of the deposited data

Results flagged for a closer look

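9 genes past the limits in CRTC3 KO had a response of at least 0.25 in the opposite direction in WT. With 1 array per condition the difference between the genotypes was not tested. Higher with FSK in CRTC3 KO and lower in WT were *Gm13034* (0.76 in CRTC3 KO and -0.32 in WT), *Gm5528* (0.68 and -0.38), *Lin7b* (0.61 and -0.29), *Chst13* (0.60 and -0.25) and the dim *Mir29b-1* (1.11 and -0.97). Lower in CRTC3 KO and higher in WT were *Plau* (-0.98 and 0.28) and the dim *1700029F12Rik* (-1.03 and 0.30), *Mir3473c* (-1.06 and 0.60) and *Olfr299* (-1.13 and 0.30).

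Among the 16004 probe sets with no gene symbol, which enter no comparison of the report, 275 (1.72%) passed 2-fold upward with FSK in CRTC3 KO. Downward 115 (0.719%) did so, and in WT the numbers were 173 upward and 258 downward. Over all 22180 genes in CRTC3 KO the shares were 0.0271% upward and 0.0496% downward. Among the 5403 bright probe sets with no symbol, the numbers were 47 (0.87%) and 15 (0.278%) in CRTC3 KO and 29 and 47 in WT. What these probe sets detect is not known from the files.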

How the results depend on the processing

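Under quantile normalization over gene probe sets and under centring each array on its median, 29 of the 29 higher and 22 of the 24 lower bright genes remained past 1.5-fold, and with probe sets averaged per gene 28 and 23. With values below the median raised to it, 1 gene was past 2-fold upward and 1 downward, and 23 higher and 17 lower bright genes were past 1.5-fold. With bright set by the 2 CRTC3 KO arrays, 28 higher and 19 lower bright genes were past 1.5-fold. A bright limit of log2 7 left 12 higher and 8 lower bright genes past 1.5-fold. At 3-fold, 0 genes were higher and 2 lower over all genes, and at 2-fold 1 bright gene was higher and 2 lower. The median of cell cycle genes lay between -0.27 and -0.24, and that of cAMP target genes between 0.17 and 0.20. Of 54 named genes none reversed; 19 moved by more than the SD between probe sets when low values were raised, most of them to 0, and *Ch25h* was at -0.94 with the mean of its probe sets and at -0.70 with low values raised. No paired analysis was possible because each condition has 1 array. No replicate exists to leave out, so the spread between cultures is unknown.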

Other observations

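Other lists moved little or unevenly in CRTC3 KO. *Slc7a11*, the cystine transporter that feeds glutathione synthesis, had 6.99 with FSK and 6.51 with vehicle in CRTC3 KO, against 6.16 and 5.94 in WT. It was the highest of 22 bright stress response genes, of which 12 were above 0, against 47.1% of all bright genes. *Gadd45g* and *Gadd45b*, relatives that respond to DNA damage and stress, had 0.32 and -0.32 in CRTC3 KO and 0.04 and 0.04 in WT. Among ID, HES and HEY genes and related BMP regulators 8 of 17 were above 0, against 47.1% of all bright genes. *Grem1*, a secreted BMP antagonist, was highest with 6.28 and 5.85 in CRTC3 KO, against 6.96 and 7.09 in WT.

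Receptors of astrocytes for transmitters and nucleotides had a median response of 0.04 over 20 bright genes. *Gprc5a*, an orphan receptor, had 7.28 with FSK and 6.90 with vehicle in CRTC3 KO, against 9.48 and 7.88 in WT, and *Vipr2*, a receptor for the peptides VIP and PACAP that raises cAMP, had 6.17 and 5.82 in CRTC3 KO, against 5.97 and 6.00 in WT. *Gad1*, which makes the transmitter GABA, had 6.30 and 5.76 in CRTC3 KO, against 6.20 and 6.36 in WT, while the other 5 bright neuron markers lay between -0.31 and 0.04.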
